A study of Mus musculus with 9 samples.

Results

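Genomic imprinting leaves a gene active on the chromosome inherited from only 1 parent, and 9 imprinted protein-coding genes were followed here in mouse oocytes. They are Peg3, Mest, Impact, Plagl1, Nnat, Ndn, Igf2r, Grb10 and Cdkn1c, picked by symbol from a table of 23235 gene symbols, and all 9 were found in it. The samples were total RNA of nuclei and cytoplasms separated by micromanipulation from day 21 oocytes, with 10 nuclei or cytoplasms pooled in each sample. The labels list 2 libraries of MTR4-null nuclei, 3 of wild-type (WT) nuclei, 2 of MTR4-null cytoplasms and 2 of WT cytoplasms. MTR4-null oocytes lack the RNA helicase that unwinds nuclear transcripts for destruction by the exosome; the allele, any Cre driver and the strain are not given in the sources used. The table holds 1 value per gene for each of those 4 groups, in FPKM (fragments corrected for transcript length and sequencing depth), and not 1 per library. Every difference below is therefore a difference between 2 group values with no replicate check, and no p-value, SD or n can be given.

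Imprints are DNA methylation marks laid down in the germ line, and most of them are set in the growing oocyte. At Peg3, Mest, Plagl1, Nnat and Impact the oocyte methylates CpG sites at or near the promoter, so that the copy inherited from the father is the active one in later tissues. Ndn is also active from the paternal copy, under the imprinting centre at Snrpn. Igf2r, Grb10 and Cdkn1c are active mainly from the maternal copy. At Igf2r and Cdkn1c the oocyte mark covers the start of an antisense RNA, Airn or Kcnq1ot1. The terms paternally and maternally expressed refer to later tissues. Which parental copy gave the RNA was not measured in these oocytes.

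The promoters of 4 members are shown as examples. Of these, Peg3 and Nnat were at least 2-fold higher in the WT nucleus than in the WT cytoplasm, while Mest and Igf2r were less than 2-fold apart. Plagl1 and Grb10 were also less than 2-fold apart and are not shown. Each window runs from 250 bases before to 50 bases after a RefSeq transcription start, 5′ to 3′ on the gene's strand, in build GRCm38.p6. Capitals mark CpG, the dinucleotide at which imprints are laid down. They do not mark where an imprint lies. At Igf2r the oocyte mark covers the start of Airn, whereas the window shown is at the start of Igf2r itself. Windows were matched by symbol for 7 of the 9 members. None was found for Cdkn1c or for Impact, which was also at least 2-fold higher in the WT nucleus. The windows shown are Peg3 at chr7:6730370-6730669 (minus strand), Nnat at chr2:157559828-157560127 (plus), Mest at chr6:30737800-30738099 (plus; the start richest in CpG) and Igf2r at chr17:12769657-12769956 (minus).
Peg3: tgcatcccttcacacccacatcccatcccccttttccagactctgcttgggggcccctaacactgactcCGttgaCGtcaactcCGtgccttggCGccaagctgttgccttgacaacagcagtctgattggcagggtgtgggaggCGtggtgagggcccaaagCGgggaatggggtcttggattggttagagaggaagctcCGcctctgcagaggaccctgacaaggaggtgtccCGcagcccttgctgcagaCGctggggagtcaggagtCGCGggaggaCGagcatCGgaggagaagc
Nnat: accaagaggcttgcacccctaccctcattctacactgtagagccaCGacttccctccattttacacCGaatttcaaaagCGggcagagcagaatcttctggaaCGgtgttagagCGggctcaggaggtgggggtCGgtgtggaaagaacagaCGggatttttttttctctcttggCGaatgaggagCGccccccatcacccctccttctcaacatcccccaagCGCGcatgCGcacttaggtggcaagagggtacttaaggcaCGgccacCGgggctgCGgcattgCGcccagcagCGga
Mest: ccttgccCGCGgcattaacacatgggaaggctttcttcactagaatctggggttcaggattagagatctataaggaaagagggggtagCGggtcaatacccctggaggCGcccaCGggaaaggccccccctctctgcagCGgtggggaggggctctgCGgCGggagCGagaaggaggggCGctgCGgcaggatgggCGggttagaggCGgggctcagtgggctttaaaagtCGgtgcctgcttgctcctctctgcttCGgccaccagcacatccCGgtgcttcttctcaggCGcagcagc
Igf2r: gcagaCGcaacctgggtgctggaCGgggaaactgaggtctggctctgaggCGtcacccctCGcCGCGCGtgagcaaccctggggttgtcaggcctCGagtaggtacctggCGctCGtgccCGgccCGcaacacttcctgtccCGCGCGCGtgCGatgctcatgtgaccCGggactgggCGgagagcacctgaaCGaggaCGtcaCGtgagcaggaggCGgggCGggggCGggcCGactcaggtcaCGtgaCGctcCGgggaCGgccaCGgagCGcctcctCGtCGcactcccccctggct

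The Peg3 window held 13 CpG, the Nnat and Mest windows 17 each and the Igf2r window 34, against a median of 7 over 32851 windows of the same length. At least as many as Peg3 were found in 37.9% of all windows, and at least as many as Igf2r in 7.73%. Of the other members, Plagl1 had 26 CpG, Ndn 11 and Grb10 45 or 9 at its 2 starts. An upstream start of Mest had 8. The hexamer TGCCGC, which the imprint-keeping protein ZFP57 reads when it is methylated, was searched on both strands. It occurred 2 times in the Mest window shown and once each in the windows of Nnat, Plagl1 and Grb10 (at the start with 45 CpG), always as GCGGCA on the gene's own strand. The windows of Peg3, Igf2r and Ndn did not hold these letters, and 11.6% of all windows did. The Peg3 window shares 263 bases with that of Usp29, a paternally expressed gene that starts there in the opposite direction. These are descriptions of the reference sequence; methylation was not measured.

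All 15 oocyte markers, among them Gdf9, Zp3 and H1foo, were at 23.4 FPKM or more in every column. Granulosa markers, from the cells around the oocyte, summed over 19 genes to 85.5 FPKM in MTR4-null nuclei, 116 in WT nuclei, 64.3 in MTR4-null cytoplasms and 99.0 in WT cytoplasms. Amh, a defining granulosa gene, was at 1.44 FPKM in MTR4-null nuclei, 0 in WT nuclei, 1.10 in MTR4-null cytoplasms and 2.36 in WT cytoplasms. Other markers of that list were higher. Esr2 was at 18.3 FPKM in MTR4-null nuclei, 24.3 in WT nuclei, 11.0 in MTR4-null cytoplasms and 21.6 in WT cytoplasms. Granulosa markers at 5 FPKM or more numbered 6 of 19 in MTR4-null nuclei and 7 in WT nuclei. In cytoplasms they numbered 4 in MTR4-null and 5 in WT. Markers of stroma and theca summed over 8 genes to 11.9 FPKM in MTR4-null nuclei, 2.76 in WT nuclei, 3.95 in MTR4-null cytoplasms and 1.86 in WT cytoplasms, and the 3 blood markers to 0.149 FPKM or less. The transcript of Mtr4, listed as Skiv2l2, was at 2.91 FPKM in MTR4-null nuclei against 16.2 in WT nuclei, and at 2.51 FPKM in MTR4-null cytoplasms against 21.6 in WT cytoplasms. The sources used here do not say which part of the gene the null allele lacks.

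By the mean of the 4 columns Mest, Igf2r and Peg3 ranked highest of the 9, at 48.9, 31.6 and 18.2 FPKM, and Ndn stayed below 1 FPKM in all 4. The place of Peg3 rests on the WT nucleus: it was at rank 4 in the MTR4-null nucleus, 5 in the MTR4-null cytoplasm and 7 in the WT cytoplasm. Peg3 and Mest led in the WT nucleus at 52.4 and 50.9 FPKM, above 88.8% and 88.4% of the genes kept. Igf2r and Mest led in the MTR4-null nucleus at 47.8 and 41.1 FPKM. In the cytoplasms the top member was Mest, at 28.4 FPKM in MTR4-null and 75.0 in WT. Because an FPKM is scaled to length, these levels can be set beside each other, but the spread between libraries is unknown and close neighbours in the order may not differ. For comparisons, genes at 1 FPKM or more in at least 1 column were kept, 14270 in all, which included 8 of the 9 members. A gene was counted as apart when its values differed at least 2-fold on the scale log2(FPKM + 1), which understates differences of low genes.

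**Figure D1:**
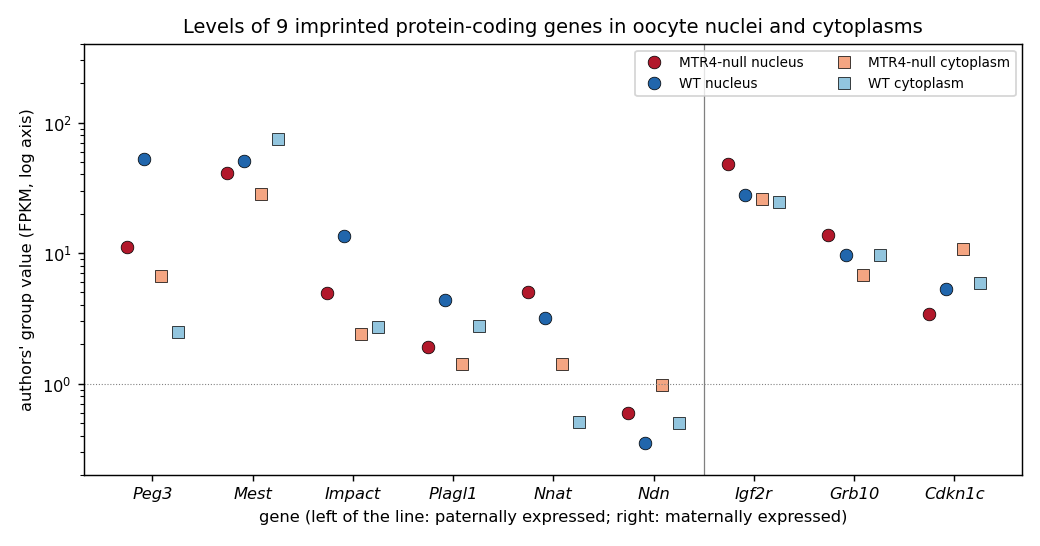
Authors' group values in FPKM (log axis) of the 9 imprinted protein-coding genes; circles are nuclei and squares cytoplasms, red shades MTR4-null and blue shades WT, and each point is 1 group with no error known. Peg3 stood at 52.4 FPKM in the WT nucleus, above its other 3 values, and all Ndn points lie under the dotted line at 1 FPKM.

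The first question was how the nuclear values of these genes differed without MTR4. Of the 8 members kept, 0 lay at least 2-fold above WT in the MTR4-null nucleus and 2, Peg3 and Impact, at least 2-fold below. Over all genes kept 23.9% were higher and 12.3% lower. In such pools fewer contributing cells and less RNA per cell cannot be told apart, and an FPKM is a share of the RNA, not an amount. The median log2 difference of the 8 was -0.40, against 0.21 over all genes. Centring on genes that reached 1 FPKM in all 4 columns, which moved nuclear differences by -0.19, put it at -0.60 and made Plagl1 the third member at least 2-fold below WT. With this centring, which is meant below where no other is named, 19.2% of all genes were higher and 16.2% lower.

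In the MTR4-null cytoplasm, 1 member, Peg3, lay at least 2-fold above WT and 1, Mest, at least 2-fold below. Over all genes 15.0% were higher and 21.4% lower. The median of the 8 was -0.02, against -0.26 over all genes. Here the scaling mattered more: the same centring moved cytoplasmic differences by 0.52, put the median at 0.50 and turned the counts to 3 higher (Peg3, Cdkn1c and Nnat) and 0 lower. The shares of all genes moved the same way, to 24.6% higher and 6.98% lower. Centring on all genes kept gave 2 members higher (Peg3 and Cdkn1c) and 1 lower (Mest), beside 2792 and 1854 of the 14270 genes. Small RNA genes, picked by symbol, made up 39.0% of the FPKM sum in MTR4-null cytoplasms and 4.09% in WT cytoplasms. In nuclei they made up 53.5% in MTR4-null and 57.7% in WT. Results with columns rescaled without them are given below.

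**Figure D2:**
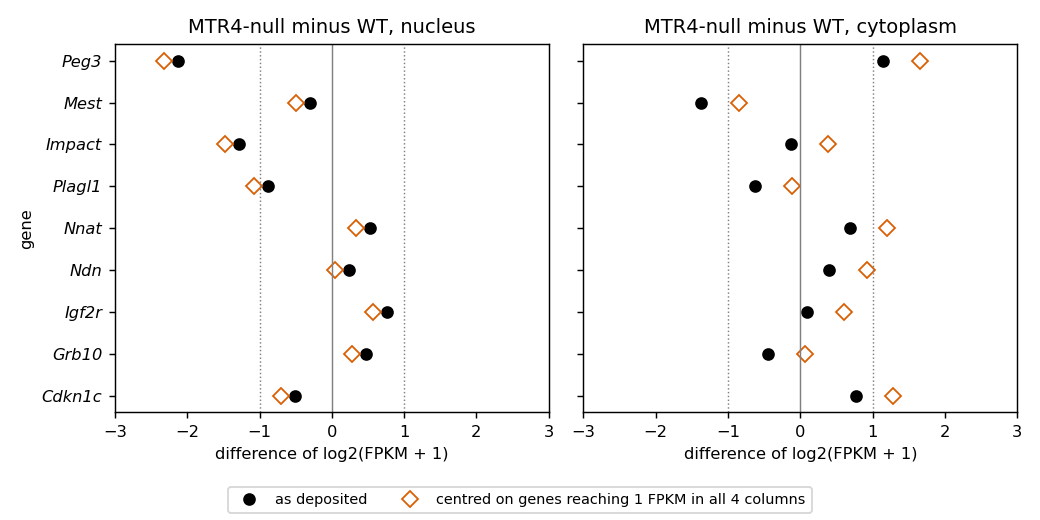
Difference of log2(FPKM + 1), MTR4-null minus WT, in the nucleus (left) and the cytoplasm (right); filled circles are values as deposited, open diamonds values centred on genes that reached 1 FPKM in all 4 columns, and dotted lines mark 2-fold; Ndn, under the filter, is plotted for completeness. As deposited, Peg3 lies at -2.13 (nucleus) and 1.14 (cytoplasm), and Mest at -1.37 (cytoplasm).

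The compartment comparisons set the nuclear value of each gene against its cytoplasmic one. An FPKM is a share of the RNA in its own fraction, so these differences do not give how a gene's RNA was split between nucleus and cytoplasm. The columns summed to 880989 FPKM in MTR4-null nuclei, 854286 in WT nuclei, 433013 in MTR4-null cytoplasms and 416740 in WT cytoplasms. In WT, nuclear values were at least 2-fold above cytoplasmic ones for 3 members (Peg3, Impact and Nnat) and below for 0, where 12.4% of all genes were higher and 4.71% lower. In MTR4-null, 1 member, Nnat, was higher and 1, Cdkn1c, lower in the nucleus, against 17.0% and 1.84% of all genes; with either centring on the median gene the Nnat difference went below 2-fold, at 0.74 or 0.79 in place of 1.31. With centring 4.48% of all genes were higher and 6.35% lower in the MTR4-null nucleus, so the balance over all genes turned. Medians of the 8 were 0.74 in MTR4-null and 0.35 in WT, beside 0.52 and -0.04 over all genes. The difference between those compartment differences, MTR4-null minus WT, was at least 2-fold lower for Peg3, Impact and Cdkn1c and at least 2-fold higher for Mest, whose 1.07 became 0.36 or 0.49 with either centring. Over all genes 10.7% were lower and 27.0% higher, and the medians were -0.21 over the 8 and 0.57 over all. This background depends on the scaling: with centring 21.9% of all genes were lower and 7.03% higher, and with centring on all genes kept 19.3% and 9.11%. Peg3, Impact and Cdkn1c were at least 2-fold lower with either centring. These comparisons reuse the same 4 columns and are not independent of one another.

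**Figure D3:**
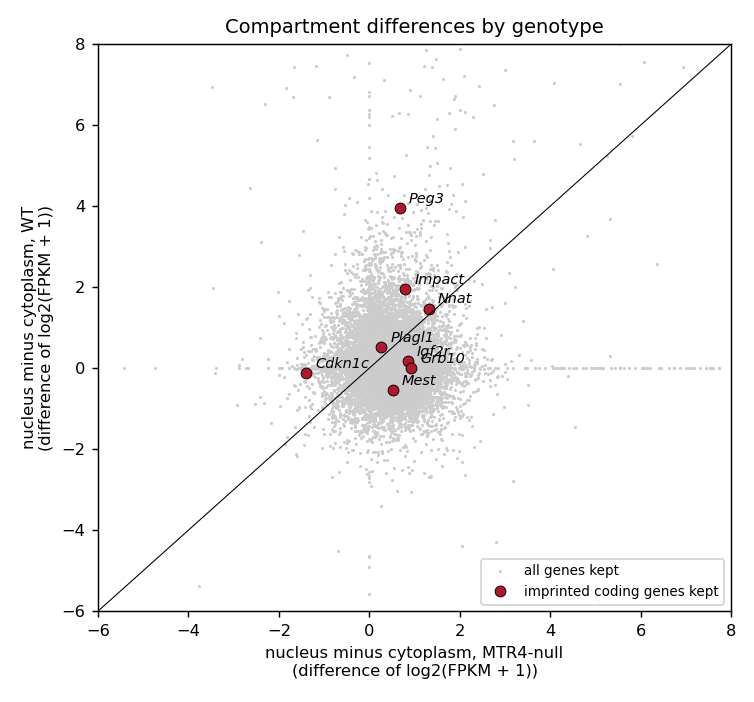
Nucleus minus cytoplasm as a difference of log2(FPKM + 1), in MTR4-null (horizontal) and WT (vertical), for the 14270 genes kept (grey; 49 lie outside the axes) and the 8 members kept (red); the line marks equal values. Peg3 sits at 0.68 and 3.94, Impact at 0.80 and 1.95 and Cdkn1c at -1.40 and -0.13.

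Peg3, a large zinc finger protein that binds DNA and affects growth and maternal behaviour, showed the widest range among members kept. It was at 11.2 FPKM in MTR4-null nuclei, 52.4 in WT nuclei, 6.63 in MTR4-null cytoplasms and 2.47 in WT cytoplasms. The WT nucleus was the high column and the WT cytoplasm the low one, 21.2-fold apart in FPKM. In MTR4-null the nucleus was 1.69-fold above the cytoplasm. The nuclear value without MTR4 was 21.4% of WT (log2 difference -2.13), whereas the cytoplasmic value was 2.69-fold that of WT (1.14). The WT nucleus-minus-cytoplasm difference of 3.94 was exceeded by 0.834% of all genes kept. Its change in MTR4-null, -3.26, was undercut by 0.869%.

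The antisense gene Peg3as followed Peg3 closely, at 10.1 FPKM in MTR4-null nuclei, 42.1 in WT nuclei, 5.15 in MTR4-null cytoplasms and 1.54 in WT cytoplasms. It was looked up after its values were seen. The 865 bases of this RNA, Peg3os in RefSeq, lie wholly inside the last exon of Peg3, and the sources used here do not say whether reads were counted by strand. Reads of the 2 genes can therefore not be told apart. The genes nearest to Peg3 over the 4 columns were searched among genes kept, without small RNA genes and predicted gene models. Peg3as was the first of them, at a distance of 0.64 on the log2(FPKM + 1) scale. The next were farther off, Cpne8, a copine gene, at a distance of 0.87 and the collagen gene Col6a5 at 0.95. Cpne8 was at 11.5 FPKM in MTR4-null nuclei, 65.5 in WT nuclei, 11.5 in MTR4-null cytoplasms and 1.63 in WT cytoplasms. Col6a5 was at 12.8 FPKM in MTR4-null nuclei, 75.7 in WT nuclei, 7.38 in MTR4-null cytoplasms and 4.87 in WT cytoplasms. Among the granulosa markers, Cyp11a1 was likewise highest in the WT nucleus, at 21.3 FPKM, against 1.47 in the MTR4-null nucleus. Of 17 granulosa markers kept, 4 lay at least 2-fold below WT in that nucleus and 4 above, where 12.3% of all genes lay below and 23.9% above; their part in the Peg3 values was not tested. The divergent neighbour Usp29 was at 0.54 FPKM in MTR4-null nuclei, 1.04 in WT nuclei, 0.529 in MTR4-null cytoplasms and 0.918 in WT cytoplasms, near or below 1 FPKM throughout. Zim1, maternally expressed in the same domain, was at 1.41 FPKM in MTR4-null nuclei and 0.164 in WT nuclei. In the cytoplasm it went the other way, at 0.309 FPKM in MTR4-null and 0.833 in WT.

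Impact encodes an inhibitor of the stress kinase GCN2, which it keeps from its activator GCN1. It was at 4.91 FPKM in MTR4-null nuclei, 13.4 in WT nuclei, 2.40 in MTR4-null cytoplasms and 2.73 in WT cytoplasms. As for Peg3, the WT nucleus was the high column, here 4.91-fold above the WT cytoplasm, and the MTR4-null cytoplasm was at 87.9% of the WT cytoplasm. The nuclear genotype difference was -1.28 and the cytoplasmic one -0.13, which turned to 0.38 with centring. The kinase gene Eif2ak4 (GCN2) did not share this profile, at 11.2 FPKM in MTR4-null nuclei, 21.5 in WT nuclei, 6.84 in MTR4-null cytoplasms and 27.5 in WT cytoplasms. Gcn1l1 (GCN1) was at 35.6 FPKM in MTR4-null nuclei, 39.4 in WT nuclei, 20.2 in MTR4-null cytoplasms and 45.0 in WT cytoplasms. As deposited, both lay at least 2-fold below WT in the cytoplasm, and with centring Eif2ak4 still did (-1.34) while Gcn1l1 did not (-0.60). Atf4, the transcription factor downstream, was at 189 FPKM in MTR4-null nuclei, 170 in WT nuclei, 138 in MTR4-null cytoplasms and 129 in WT cytoplasms.

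Nnat, a small membrane protein of the endoplasmic reticulum best known from brain, was low but higher in nuclei than in cytoplasms of both genotypes. It was at 5.02 FPKM in MTR4-null nuclei, 3.16 in WT nuclei, 1.42 in MTR4-null cytoplasms and 0.504 in WT cytoplasms. The nuclear excess was 3.53-fold in MTR4-null and 6.27-fold in WT. MTR4-null values were higher in both compartments by less than 2-fold on the log2(FPKM + 1) scale, at 0.53 and 0.69. In plain FPKM the cytoplasmic ratio was 2.82, which shows how far the pseudocount compresses so low a gene. Nnat lies inside Blcap on the opposite strand with 0 exon bases in common. Unspliced Blcap RNA and Nnat cannot be told apart if strand was not used. Blcap was at 91.5 FPKM in MTR4-null nuclei, 41.2 in WT nuclei, 63.6 in MTR4-null cytoplasms and 63.1 in WT cytoplasms. Its part in the Nnat values was not tested.

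Mest, an enzyme of the alpha/beta hydrolase fold, had its highest value in the WT cytoplasm. It was at 41.1 FPKM in MTR4-null nuclei, 50.9 in WT nuclei, 28.4 in MTR4-null cytoplasms and 75.0 in WT cytoplasms. The MTR4-null cytoplasm was the low column, at 37.9% of WT (-1.37). That difference shrank to -0.85 with centring, -0.78 with quantile normalization and -0.79 with columns rescaled without small RNAs, each under 2-fold. With centring on all genes kept it was -1.10, still past 2-fold. Genes nearest to Mest were Arhgef16, at 38.3 FPKM in MTR4-null nuclei, 52.2 in WT nuclei, 30.0 in MTR4-null cytoplasms and 75.2 in WT cytoplasms and a distance of 0.13, Atg12 of the autophagy machinery, at a distance of 0.20, and the actin-bundling villin gene Vil1, at 0.21. Mest and its neighbour Copg2 overlap tail to tail, with 912 exon bases in common, or 23.1% of the Mest exons, so that reads there cannot be told apart if strand was not used. Copg2, a coat protein of vesicles, was at 36.2 FPKM in MTR4-null nuclei, 11.0 in WT nuclei, 14.5 in MTR4-null cytoplasms and 17.6 in WT cytoplasms and thus differed in profile. Klf14, a neighbour of Mest, and the microRNA gene Mir335, inside it, are listed at 0 in every column.

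Plagl1, a zinc finger transcription factor that slows the cell cycle, was at 1.90 FPKM in MTR4-null nuclei, 4.36 in WT nuclei, 1.42 in MTR4-null cytoplasms and 2.74 in WT cytoplasms. MTR4-null was lower in both compartments, with differences of -0.88 (nucleus) and -0.63 (cytoplasm). Neither passed 2-fold on the log2(FPKM + 1) scale without centring. In plain FPKM the WT value was 2.29-fold the MTR4-null one in the nucleus and 1.93-fold in the cytoplasm. With either centring the nuclear difference passed 2-fold, at -1.08 or -1.09. Its neighbour Phactr2 stayed at 0.526 FPKM or less. Ndn encodes necdin, a MAGE family protein of neurons, and has a single exon. It was at 0.599 FPKM in MTR4-null nuclei, 0.351 in WT nuclei, 0.971 in MTR4-null cytoplasms and 0.497 in WT cytoplasms. All 4 values were under the filter, so no fold is drawn from them. Its domain was not silent as a whole: Snrpn was at 6.10 FPKM in MTR4-null nuclei, 20.7 in WT nuclei, 3.28 in MTR4-null cytoplasms and 15.9 in WT cytoplasms and the maternally expressed ubiquitin ligase gene Ube3a at 28.2 FPKM in MTR4-null nuclei, 22.7 in WT nuclei, 20.9 in MTR4-null cytoplasms and 23.5 in WT cytoplasms. Magel2 stayed at 0.0471 FPKM or less and Mkrn3 reached 1.18 FPKM in the MTR4-null nucleus.

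Igf2r, the receptor that takes up and destroys the growth factor IGF2, had the lowest ratio of its highest to its lowest column among the 9, 1.95. It was at 47.8 FPKM in MTR4-null nuclei, 27.8 in WT nuclei, 26.1 in MTR4-null cytoplasms and 24.5 in WT cytoplasms. The MTR4-null nucleus was the high column and the other 3 lay close together. The nuclear genotype difference was 0.76 and the cytoplasmic one 0.09. Mrpl33, of the mitochondrial ribosome, had nearly the same 4 values, at 47.4 FPKM in MTR4-null nuclei, 27.5 in WT nuclei, 25.7 in MTR4-null cytoplasms and 25.9 in WT cytoplasms and a distance of 0.08. Aimp2 (0.19) and Plekhj1 (0.21) were next. Its antisense RNA Airn, which starts inside Igf2r and shares 0 exon bases with it, was at 6.20 FPKM in MTR4-null nuclei, 6.31 in WT nuclei, 1.26 in MTR4-null cytoplasms and 1.20 in WT cytoplasms. Airn was thus higher in nuclei than in cytoplasms, by 1.73 in WT, where the Igf2r difference was 0.18. Unspliced RNA of either gene cannot be told apart from the other if strand was not used. The ligand gene Igf2 was at 1.72 FPKM in MTR4-null nuclei, 0.732 in WT nuclei, 0.504 in MTR4-null cytoplasms and 1.60 in WT cytoplasms. Slc22a2 and Slc22a3, maternally expressed transporter genes beside Igf2r, were at 0.889 and 2.03 FPKM in MTR4-null nuclei, against 0 and 0.182 in WT nuclei.

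Grb10, an adaptor that dampens insulin and IGF1 receptors, was at 13.9 FPKM in MTR4-null nuclei, 9.67 in WT nuclei, 6.83 in MTR4-null cytoplasms and 9.69 in WT cytoplasms. The WT compartments were level, and the MTR4-null nucleus was 2.03-fold above its cytoplasm in FPKM, or 0.92 on the log2(FPKM + 1) scale. The receptor gene Igf1r was at 11.6 FPKM in MTR4-null nuclei, 5.85 in WT nuclei, 6.41 in MTR4-null cytoplasms and 7.49 in WT cytoplasms. Of the neighbours of Grb10, Ddc stayed at 0.0498 FPKM or less and Cobl, an actin nucleator, was at 3.80 FPKM in MTR4-null nuclei, 4.23 in WT nuclei, 1.98 in MTR4-null cytoplasms and 11.6 in WT cytoplasms.

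Cdkn1c encodes p57, an inhibitor of cyclin-dependent kinases. An antisense gene model that is not in the table covers 625 of its exon bases, or 30.7%, and reads there cannot be assigned if strand was not used. It was at 3.42 FPKM in MTR4-null nuclei, 5.29 in WT nuclei, 10.7 in MTR4-null cytoplasms and 5.86 in WT cytoplasms. The MTR4-null cytoplasm was the high column and the MTR4-null nucleus the low one, which gave a nucleus-minus-cytoplasm difference of -1.40 in MTR4-null against -0.13 in WT. A lower value than -1.40 was found for 0.715% of all genes. The genotype differences of -0.51 (nucleus) and 0.77 (cytoplasm) were each under 2-fold as deposited; the cytoplasmic one became 1.28 with centring and 1.03 with centring on all genes kept. Of its relatives, Cdkn1b was at 26.1 FPKM in MTR4-null nuclei, 15.2 in WT nuclei, 11.3 in MTR4-null cytoplasms and 15.5 in WT cytoplasms and Cdkn1a stayed at 0.677 or less. The target kinase Cdk2 was at 20.7 FPKM in MTR4-null nuclei, 8.80 in WT nuclei, 14.4 in MTR4-null cytoplasms and 10.7 in WT cytoplasms, and Cdk1 at 21.7 FPKM in MTR4-null nuclei, 22.7 in WT nuclei, 12.97 in MTR4-null cytoplasms and 24.0 in WT cytoplasms.

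The domain of Cdkn1c held larger differences than Cdkn1c itself. Kcnq1ot1, the antisense RNA whose start carries the oocyte mark, was at 6.27 FPKM in MTR4-null nuclei, 16.0 in WT nuclei, 2.04 in MTR4-null cytoplasms and 0.11 in WT cytoplasms. Like Peg3 it was highest in the WT nucleus and lowest in the WT cytoplasm. The channel gene Kcnq1, within which it lies, ran otherwise at 23.0 FPKM in MTR4-null nuclei, 7.56 in WT nuclei, 8.48 in MTR4-null cytoplasms and 16.1 in WT cytoplasms. Unspliced Kcnq1 RNA and Kcnq1ot1 cannot be told apart if strand was not used. The placental growth restrainer Phlda2 was lower in MTR4-null in both compartments, at 0.767 against 5.48 FPKM in the nucleus and 1.15 against 4.57 FPKM in the cytoplasm. Slc22a18 was at 0.194 FPKM in the MTR4-null cytoplasm and 1.90 in the WT cytoplasm, and at 0.167 and 0.161 FPKM in the nuclei. Cd81, also of this domain, was at 11.9 FPKM in MTR4-null nuclei, 1.75 in WT nuclei, 0.796 in MTR4-null cytoplasms and 2.15 in WT cytoplasms. Osbpl5 lay between 1.77 and 2.57 FPKM in all 4 columns. Not every gene of the domain is named here.

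**Figure D4:**
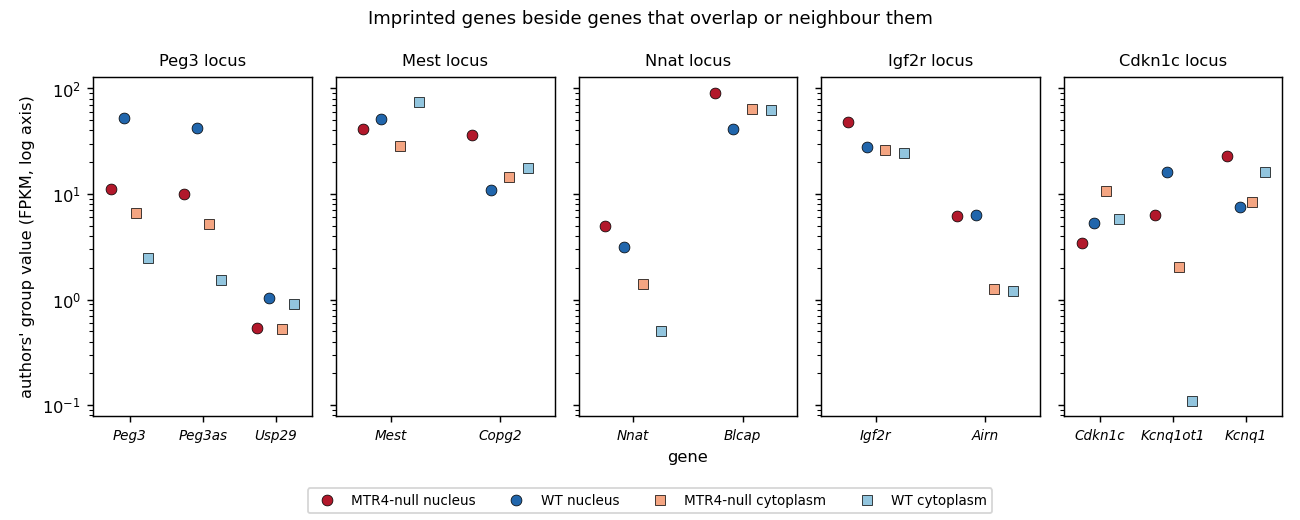
Authors' group values in FPKM (log axis) of 5 imprinted genes beside genes that overlap or neighbour them; circles are nuclei and squares cytoplasms, red shades MTR4-null and blue shades WT. Peg3as repeats the Peg3 profile while Copg2, Blcap, Airn and Kcnq1 differ from the member beside them; Kcnq1ot1 spans 0.11 FPKM in the WT cytoplasm to 16.0 in the WT nucleus.

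The other imprinted protein-coding genes were counted as a list of 46, of which 45 are in the table and 33 were kept. In the nucleus 8 lay at least 2-fold above WT and 6 below, with a median log2 difference of 0.18, close to the 0.21 of all genes. Over all genes 23.9% lay above and 12.3% below there. In the cytoplasm 1 lay above and 7 below, for a median of -0.33 against -0.26, beside 15.0% and 21.4% of all genes. With centring the counts became 6 above and 7 below in the nucleus and 3 above and 2 below in the cytoplasm, which turned the cytoplasmic balance; with centring on all genes kept they were 6 and 7 in the nucleus and 2 and 7 in the cytoplasm. In WT 3 were higher in the nucleus (Snurf, Rasgrf1 and Ppp1r9a) and 2 lower (Kcnq1 and Slc22a18), beside 12.4% and 4.71% of all genes; Kcnq1 went under 2-fold with either centring. Of the paternally expressed genes at 5 FPKM or more, Snrpn, which encodes a spliceosome protein, was lower in MTR4-null in both compartments. Snurf, which shares a transcript with Snrpn so that their reads may be split between them, was at 3.598 FPKM in MTR4-null nuclei, 5.56 in WT nuclei, 0.641 in MTR4-null cytoplasms and 0.533 in WT cytoplasms. Inpp5f, a lipid phosphatase, was at 18.0 FPKM in MTR4-null nuclei, 14.1 in WT nuclei, 12.9 in MTR4-null cytoplasms and 14.0 in WT cytoplasms. Of the domains' noncoding RNAs, 6 of 8 were kept, and 3 of these lay at least 2-fold above the cytoplasm in MTR4-null nuclei and 5 in WT nuclei, beside 17.0% of all genes in MTR4-null and 12.4% in WT. With either centring the MTR4-null counts were 2 higher (Airn and Rian) and 1 lower (Nespas), and the WT count was 5. The most abundant maternally expressed genes were Trappc9, of vesicle tethering, at 130 FPKM in MTR4-null nuclei, 238 in WT nuclei, 72.0 in MTR4-null cytoplasms and 186 in WT cytoplasms, and the histone chaperone Nap1l4 at 175 FPKM in MTR4-null nuclei, 140 in WT nuclei, 103 in MTR4-null cytoplasms and 164 in WT cytoplasms. Tssc4 was at 60.7 FPKM in MTR4-null nuclei against 10.9 in WT nuclei. H13 and Commd1 were less than 2-fold apart in every genotype comparison.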

How the data were processed

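Total RNA libraries were made from pools of 10 nuclei or cytoplasms after ribosomal RNA depletion, per the labels' protocols. The authors deposited 1 table of FPKM values with 4 columns, 1 per genotype and compartment, and TopHat2 2.1.1, Cufflinks 2.2.1 and build mm9 are named in the submitters' processing notes without their order or settings. The sources used here do not say how the 9 libraries were combined; between 22.2% and 48% of the values above 0 in a column end in repeated 3s or 6s, as means of 3 values would, although the labels list 2 libraries for 3 of the 4 groups. How many libraries stand behind each value is therefore unclear. The last row has no gene name, equals the sum of the others (50% of all values) and was left out. Read depth is unknown, and intervals cannot be given.

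Differences were taken on log2(FPKM + 1) with Python 3.11.15 and pandas 2.3.3, over genes at 1 FPKM or more in at least 1 of the 4 columns. Counting was tested on simulated data. Named beside the 9 members were list genes at 5 FPKM or more, up to 6 with the highest values per list. Neighbours picked from the members' domains were named too, but not every gene of those domains. The 3 genes nearest to each of the 3 most abundant members were added. They were searched among genes kept that are neither small RNA genes nor predicted gene models. Markers, further genes of the imprinting and growth lists and genes said to be looked up after their values were seen stand outside that rule. Zfp264 and Hymai were not analysed here. The members and lists were chosen with earlier results of these data known. Gene structures are from GENCODE on GRCm38 and promoters from RefSeq; no coordinates were carried between builds.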

Additional observations from a re-analysis of the deposited data

Results flagged for a closer look

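Peg3 differed between genotypes in opposite directions in the compartments, each by at least 2-fold: -2.13 for nuclei and 1.14 for cytoplasms, as MTR4-null minus WT of log2(FPKM + 1). Peg3as, which shares its bases with the last exon of Peg3, stood at -1.96 and 1.28. Kcnq1ot1 stood at -1.23 and 1.46, the latter against a WT cytoplasm value of only 0.11 FPKM. Its reads cannot be told apart from unspliced Kcnq1 RNA if strand was not used. With 1 value per group, the difference between the compartments was not tested for Peg3, Peg3as or Kcnq1ot1.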

How the results depend on the processing

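Each difference was recomputed with a pseudocount of 0.1 FPKM, without the filter, with 2 centrings, with quantile normalization and with columns rescaled to the same sum over genes other than small RNAs. Of 13 member differences of at least 2-fold, 10 kept their direction and stayed at least 2-fold under all 6 alternatives, and 0 changed sign; the exceptions were Mest in the cytoplasm, Mest in the change of the compartment difference and Nnat between the MTR4-null compartments. Of 27 differences under 2-fold among the 8 members kept, 14 kept their direction and stayed under 2-fold throughout, 6 passed 2-fold under at least 1 alternative (among them Cdkn1c and Nnat in the cytoplasm) and the other 7 changed sign (among them Impact in the cytoplasm). Members at least 2-fold above WT in the cytoplasm numbered 1 as deposited, 2 with the small pseudocount and with centring on all genes, and 3 with centring on genes that reached 1 FPKM in all 4 columns and with rescaling. Over the 14270 genes kept the counts moved the same way. They were 2135 as deposited, 3063 with the small pseudocount, 2792 and 3511 with those centrings and 3228 with rescaling. Members at least 2-fold below WT there numbered 1 as deposited and 0 with that second centring, with quantile normalization and with rescaling. Of all genes kept 3047 lay below as deposited, and 996, 2174 and 1071 under those alternatives in the same order. Members higher in the MTR4-null nucleus than in its cytoplasm numbered 1 as deposited, 3 with the small pseudocount and 0 with both centrings, quantile normalization and rescaling. For a higher compartment difference in MTR4-null than in WT the counts were 1 as deposited, 2 with the small pseudocount and 0 under the same 4. The all-gene counts for the MTR4-null compartments were 2428 as deposited, 3654 with the small pseudocount and 640 to 855 under those 4. For the higher compartment difference they were 3859, 4800 and 1003 to 1798. Each centring sets the median of its own genes to 0 by construction; for the others the cause was not tested. No paired analysis was possible because the columns hold groups, not libraries, and leaving out each replicate was not run for the same reason. Depth is unknown, so values near 1 FPKM, as for Ndn and Nnat, have no stated precision.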

Other observations

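Among the other imprinted genes kept, the largest genotype differences on log2(FPKM + 1) belonged to Dio3 in both compartments, at 3.40 and 3.75; it encodes the deiodinase that inactivates thyroid hormone. In plain FPKM the low gene Rasgrf1 differed more in the nucleus, at 0.228 FPKM in MTR4-null against 3.96 in WT, or 17.4-fold, where Dio3 was 15.6-fold apart. Dio3 was at 29.7 FPKM in MTR4-null nuclei against 1.91 in WT nuclei, and at 28.0 FPKM in MTR4-null cytoplasms against 1.15 in WT cytoplasms. Dio3os, a noncoding gene beside it that was looked up after its values were seen, stood at 9.32 against 0.308 FPKM in the nuclei and at 11.3 against 0.352 FPKM in the cytoplasms. Of the noncoding RNAs of the same chromosome domain, Meg3 was at 2.78 FPKM in MTR4-null nuclei, 7.69 in WT nuclei, 3.97 in MTR4-null cytoplasms and 1.90 in WT cytoplasms, and Rian at 5.501 FPKM in MTR4-null nuclei, 5.77 in WT nuclei, 0.83 in MTR4-null cytoplasms and 1.30 in WT cytoplasms.

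All 14 genes for setting and keeping imprints were kept. In the nucleus 3 lay at least 2-fold above WT and 2 below; in the cytoplasm 0 lay above and 4 below. All genes stood at 23.9% above and 12.3% below in the nucleus and at 15.0% above and 21.4% below in the cytoplasm. With centring on genes that reached 1 FPKM in all 4 columns, 0 lay above and 2 (Dnmt3a and Nlrp2) below in each compartment; centring on all genes kept gave 0 and 2 in the nucleus and 0 and 4 in the cytoplasm. Dnmt3a, the enzyme that lays down new methylation, was at 21.004 FPKM in MTR4-null nuclei, 47.8 in WT nuclei, 15.2 in MTR4-null cytoplasms and 47.7 in WT cytoplasms. Its cofactor Dnmt3l was at 62.8 FPKM in MTR4-null nuclei, 66.4 in WT nuclei, 33.5 in MTR4-null cytoplasms and 96.8 in WT cytoplasms. The imprint keeper Zfp57 was at 1202 FPKM in MTR4-null nuclei, 917 in WT nuclei, 878 in MTR4-null cytoplasms and 1102 in WT cytoplasms. Trim28, the corepressor it recruits, was at 236 FPKM in MTR4-null nuclei, 108 in WT nuclei, 161 in MTR4-null cytoplasms and 120.1 in WT cytoplasms. Dnmt1, which copies methylation after replication, was at 1201 FPKM in MTR4-null nuclei, 882 in WT nuclei, 735 in MTR4-null cytoplasms and 977 in WT cytoplasms, and its partner Uhrf1 at 391 FPKM in MTR4-null nuclei, 339 in WT nuclei, 273 in MTR4-null cytoplasms and 460.2 in WT cytoplasms. Dppa3, which shields the maternal genome, was at 606 FPKM in MTR4-null nuclei, 654 in WT nuclei, 288 in MTR4-null cytoplasms and 711 in WT cytoplasms, and Nlrp5 at 690.0 FPKM in MTR4-null nuclei, 314 in WT nuclei, 363 in MTR4-null cytoplasms and 402 in WT cytoplasms.

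Of 13 partners in growth and stress signalling, 11 were kept. In the nucleus 2 (Irs2 and Cdk2) lay at least 2-fold above WT and 0 below. In the cytoplasm 1 (Irs2) lay above and 2 below. All genes stood at 23.9% above and 12.3% below in the nucleus and 15.0% and 21.4% in the cytoplasm. With either centring 1 (Irs2) lay above and 1 (Eif2ak4) below in each compartment. Irs2, an adaptor of the insulin receptor, was at 6.55 FPKM in MTR4-null nuclei, 0.176 in WT nuclei, 4.49 in MTR4-null cytoplasms and 0.205 in WT cytoplasms.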
